A study of Oryza sativa Japonica Group with 6 samples.

Results

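The genes described here act early in the rice anther, in the tapetum (the inner wall layer that feeds the pollen), in the choice of cell fates or in the germ cells, and were read in mature anthers at anthesis. They were taken by gene name, as C6, TDR, UDT1, GAMYB, WDA1, MSP1 and MEL1, using every probe set that the array's gene annotation lists for them. Of these 7 genes, 5 had a probe set, 1 each, so that 5 of the 17905 genes with a named probe set, and 5 of the 57381 probe sets of the array, are described. UDT1 and WDA1 had no probe set listed under those names and were not analysed here.

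Mature anthers of field-grown plants of a japonica variety of rice gave the total RNA, and each sample was read on its own Affymetrix rice genome array. There were 3 arrays from the dao mutant and 3 from wild type, which the labels call biological replicates. The dao mutant is named for the dioxygenase for auxin oxidation, which inactivates the auxin indole-3-acetic acid, and the comparison asks which anther transcripts differ in the mutant. The sources used here do not give the lesion. The labels disagree in one place: their description line speaks of seedlings for all 6 arrays, and of Epi-df plants for the dao arrays, whereas every other field gives mature anthers and dao.

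The arrays were labelled as anther, and the pollen beta-expansin EXPB9 had a signal of 11540, 11240 and 11360 on the dao arrays, against 12680, 12510 and 13040 on the wild-type arrays. DAO itself was higher on the arrays labelled dao, at 1551, 1168 and 1391, against 480.0, 883.2 and 685.8 on the wild-type arrays (log2 1.04, SE 0.22, adjusted p = 0.0251, called in 12 of 18 settings), which does not check the labels, since the place of the probes relative to the lesion is unknown. Array medians ran from 8.82 to 9.12 in dao and from 8.95 to 9.33 in wild type. The ratio of 3' to 5' signal of 1 rice Gapdh control was 65.24, 54.13 and 54.35 on the dao arrays. It was 80.06, 115.6 and 82.12 on the wild-type arrays, without overlap. For rice actin it was 174.0, 100.2 and 138.7, against 129.1, 102.4 and 98.92, and the groups overlapped, as they did for the other rice Gapdh control. The part of RNA quality in the differences was not tested. In both groups the array numbered 3 lay between the other arrays wherever these were far apart: where arrays 1 and 2 differed by 2-fold or more, it lay between them in 1222 of 1236 probe sets in dao and 1891 of 1918 in wild type. If array 3 is not independent of the others, the p-values are too small. Without both arrays numbered 3, 0 probe sets passed in limma (3481 had an unadjusted p under 0.05, and the lowest adjusted p was 0.163).

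The tapetum forms around the germ cells, supplies wall precursors and lipids to the microspores, and is broken down by programmed cell death before the anther opens. In rice, the receptor kinase MSP1 limits how many cells become germ cells, MEL1 is an argonaute of the germ line, and UDT1, GAMYB and TDR are transcription factors that drive tapetum differentiation and its death. C6 is a lipid transfer protein that the tapetum secretes, and its gene is known as a target of TDR. WDA1 acts in the synthesis of the very long chain lipids of the anther surface. All of these are best known from stages well before anthesis.

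Of the 5 genes, C6 had the largest difference between dao and wild-type anthers (3.11-fold), MEL1 the most even one (1.73-fold), MSP1 a smaller one (1.57-fold), and TDR and GAMYB the smallest (1.29-fold and 1.09-fold). The differences of all 5 were positive. A call required an adjusted p of at most 0.05 over all 34355 probe sets tested together with a 2-fold difference, and 0 of the 5 met both limits, where 3.37% of all probe sets did (2.03% higher and 1.34% lower). On the adjusted p alone 1 of the 5 passed, MEL1, against 9.89% of all probe sets in either direction and 6.53% higher. Every dao array lay above every wild-type array for 3 of the 5 (C6, MSP1 and MEL1), an arrangement seen in 17.9% of all probe sets and in 27.1% of genes by their brightest probe set. A positive difference, whatever its size, was seen in 49.3% of probe sets and 62.4% of genes. An exact 2-sided permutation test of 3 arrays against 3 cannot give a p below 0.10.

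**Figure D1:**
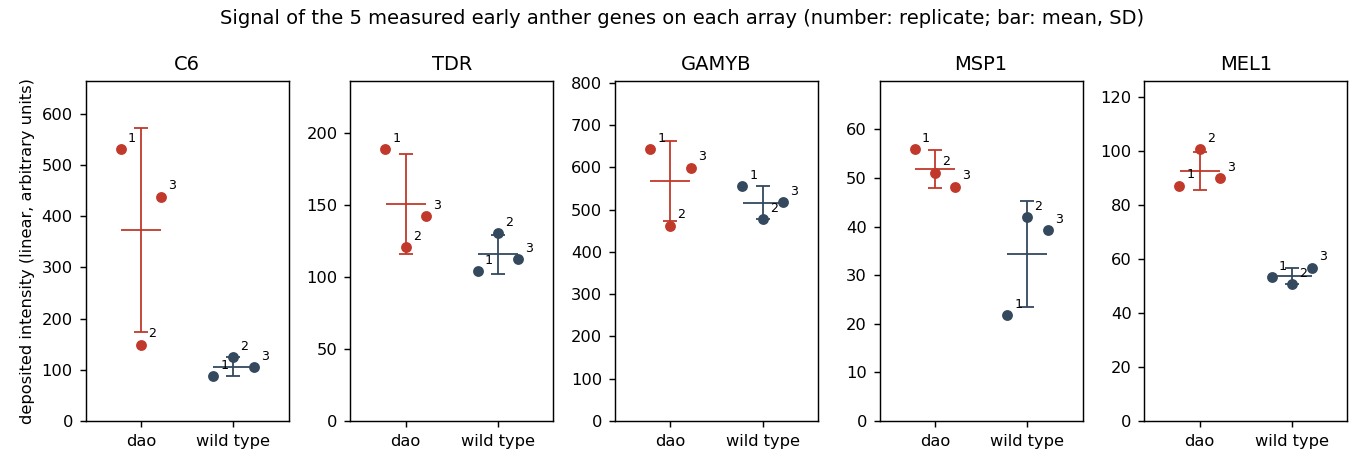
Deposited intensity (linear scale, arbitrary units) of C6, TDR, GAMYB, MSP1 and MEL1 on each dao and wild-type array. Points are arrays with their replicate number, and the bars show the mean and SD of 3 arrays. For C6 the dao arrays 1 and 3 stand at 531.4 and 438.2 and dao array 2 at 149.2, against 87.6 to 125.1 in wild type.

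The receptor kinase MSP1, a leucine-rich repeat kinase of the anther wall and ovule, had a signal of 55.96, 51.12 and 48.21 on the dao arrays, against 21.75, 41.91 and 39.26 on the wild-type arrays. The groups did not overlap, and wild-type array 1 stood well below the other wild-type arrays. The mean was 51.8 ± 3.91 in dao and 34.3 ± 11.0 in wild type (SD, n = 3 each). The log2 difference of 0.65 (SE 0.25, adjusted p = 0.149) did not pass. Without wild-type array 1 it was 0.35 (adjusted p = 0.163, and 0.0931 to 0.523 over the 18 settings). The wild-type spread of MSP1 was larger than that of 94.4% of the probe sets tested, while its spread in dao was larger than that of 29.2%. In bulk anthers, a change in the number of cells that hold a transcript and a change in the amount per cell cannot be told apart, here and in all that follows.

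The partners of MSP1 and other genes that set early anther cell fates showed no call. Of the 7 genes of this list that were measured 6 were tested, MSP1 included, and 0 rose, 0 fell and 6 did not pass. Over the 15612 genes tested, 3.08% rose and 0.749% fell. The list had a median log2 difference of 0.18, against 0.11 over those 15612 genes. TDL1A, whose product is the ligand that binds MSP1, had a signal of 79.47, 72.45 and 74.75 on the dao arrays, against 93.35, 64.76 and 74.68 on the wild-type arrays. The groups overlapped fully (log2 -0.02, SE 0.16, adjusted p = 0.946). TDL1A is outside the rule for named genes and was added as the ligand of MSP1, with its value known. TDL1B, of the same ligand family, was at log2 0.26 (adjusted p = 0.633), and the receptor kinase SERK1 at log2 0.11 (adjusted p = 0.767). ADL1, a calpain-like protease, was at 282 ± 18.3 in dao and 234 ± 12.3 in wild type (SD, n = 3 each), without overlap between the groups but with an adjusted p of 0.159. FON1, a receptor kinase of the floral meristem, was at log2 0.06 (adjusted p = 0.923).

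GAMYB, the MYB factor through which gibberellin acts in the tapetum and in the seed aleurone, had a signal of 643.7, 462.6 and 599.9 on the dao arrays, against 555.9, 477.2 and 517.4 on the wild-type arrays. The groups overlapped, with dao array 2 the lowest of all 6 and dao arrays 1 and 3 the highest. The log2 difference was 0.13 (SE 0.14, adjusted p = 0.625), and its 95% interval ran from -0.20 to 0.45, that is from 0.871-fold to 1.37-fold. A change as large as 2-fold lies outside this interval. The name of its probe set ends in _x_at, by which the manufacturer marks probe sets whose probes can bind related transcripts, so the signal may include other MYB genes.

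Around GAMYB, several gibberellin genes were higher in dao. Of 18 measured genes of the list of gibberellin genes and alpha-amylases 14 were tested, GAMYB included, and 2 rose, 0 fell and 12 did not pass, where 3.08% of genes rose and 0.749% fell. On the adjusted p alone, 4 of the 14 stood higher and 1 stood lower, where 10.4% of all genes stood higher and 2.68% lower. The list had a median of log2 0.17, against 0.11 over all genes tested. GA20OX3, an oxidase late in gibberellin synthesis, had 2992, 1342 and 2337 on the dao arrays, against 872.4, 965.3 and 1005 on the wild-type arrays. It rose by 1.16 on the log2 scale (SE 0.26, adjusted p = 0.0314). EUI1, a cytochrome P450 that deactivates gibberellins, had 535.8, 238.1 and 396.0 on the dao arrays, against 136.7, 188.1 and 172.7 on the wild-type arrays. It rose by 1.17 (SE 0.28, adjusted p = 0.0391), and in both of these genes dao array 2 was the lowest dao array. Each call held in 11 of 18 settings. Among the settings that left out 1 array, both were lost without dao array 1, dao array 3, wild-type array 1 or wild-type array 3. GA20OX3 was also lost without wild-type array 2. Over all 18 settings the adjusted p reached 0.423 for GA20OX3 and 0.453 for EUI1.

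GID1, the gibberellin receptor, was at 348 ± 19.5 in dao and 246 ± 27.1 in wild type (SD, n = 3 each), with a log2 difference of 0.51 (adjusted p = 0.0365, at most 0.05 in 8 of 18 settings), under the 2-fold limit. CPS1, the enzyme of the first committed step of gibberellin synthesis, was at 1300.0 ± 148 in dao and 1921 ± 173 in wild type, with a log2 difference of -0.57 (adjusted p = 0.0228), also under that limit. The alpha-amylases are the classic targets of GAMYB in the aleurone. Of the 5 measured here, AMY1A, AMY3A, AMY3D and AMY3E were too dim to be tested, with signals from 3.34 to 7.55 over the 6 arrays, and AMY2A was at log2 0.65 (adjusted p = 0.0429, at most 0.05 in 9 of 18 settings). AMY2A was picked for mention with its value already known.

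TDR, the basic helix-loop-helix factor that promotes tapetum breakdown, had a signal of 188.6, 120.5 and 142.3 on the dao arrays, against 104.1, 130.3 and 112.2 on the wild-type arrays. The groups overlapped, since dao array 2 lay below wild-type array 2, and the other dao arrays lay above all wild-type arrays. The mean was 151 ± 34.8 in dao and 116 ± 13.4 in wild type (SD, n = 3 each). The log2 difference was 0.36 (SE 0.18, adjusted p = 0.260), with a 95% interval from -0.06 to 0.79, or 0.957-fold to 1.73-fold.

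The other factors of the tapetum pathway also showed no call under both limits. Of 7 genes measured and tested, TDR and GAMYB included, 0 rose, 0 fell and 7 did not pass. Over all genes tested, 3.08% rose and 0.749% fell. The list had 6 positive differences and 1 negative, where 62.4% of all genes were positive. Its median was log2 0.34, against 0.11 over all genes tested. On the adjusted p alone 1 of the 7 was higher, where 10.4% of all genes were higher and 2.68% lower. It was MADS3, a stamen identity factor that is also needed late in anther development, at 337.8, 299.5 and 287.7 on the dao arrays, against 164.4, 195.4 and 177.5 on the wild-type arrays. The groups were well apart (log2 0.78, SE 0.12, adjusted p = 0.0103), under the 2-fold limit. TIP2, a helix-loop-helix factor that works with TDR, was dim, at 24.73, 11.34 and 17.83 on the dao arrays, against 10.95, 12.11 and 10.95 on the wild-type arrays. EAT1, another helix-loop-helix factor of tapetum death, was at 41.70, 16.13 and 23.77, on the dao arrays, against 16.81, 25.37 and 18.37 on the wild-type arrays. The groups overlapped in both genes (log2 0.59, adjusted p = 0.200 for TIP2, and log2 0.34, adjusted p = 0.572 for EAT1), and in both dao array 1 was the highest and dao array 2 the lowest of the dao arrays, as for TDR. API5, an inhibitor of apoptosis that is needed for timely tapetum death, was at log2 0.16 (adjusted p = 0.488).

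C6, the secreted lipid transfer protein, had a signal of 531.4, 149.2 and 438.2 on the dao arrays, against 87.6, 125.1 and 105.9 on the wild-type arrays. All dao arrays lay above all wild-type arrays, but dao array 2 stood only just above wild-type array 2. The mean was 373 ± 199 in dao and 106 ± 18.7 in wild type (SD, n = 3 each). The log2 difference was 1.63 (SE 0.43), with a 95% interval of 0.64 to 2.63, or 1.56-fold to 6.19-fold. Its adjusted p of 0.0524 was just over the limit, so it was not called. The highest dao array was 3.56 times the lowest, and the spread of C6 among the dao arrays was larger than that of 99.6% of the probe sets tested. Against the wild-type mean, the dao arrays stood at log2 2.34, 0.51 and 2.06.

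The call on C6 turned on which arrays and probe sets entered the fit. With 1 probe set per gene, which leaves fewer tests, the adjusted p was 0.0468, and with a stricter filter on dim probe sets 0.0474. Without dao array 2 the log2 difference was 2.20 (adjusted p = 0.00230), without dao array 1 it was 1.28 (0.155), and without both arrays numbered 3 it was 1.43 (0.503). Over 18 settings it was positive in 18 and called in 4, with adjusted p from 0.000249 to 0.503.

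Other products of the tapetum and pollen wall gave no call. Of 8 genes measured 4 were tested, C6 included, and 0 rose, 0 fell and 4 did not pass. Over all genes tested, 3.08% rose and 0.749% fell. The list had 2 positive and 2 negative differences and a median of log2 0.32, against 0.11 over all genes tested. The 4 not tested were C4, CYP703A3, CP1 and AP25, with signals from 3.90 to 11.2 on the dao arrays and from 4.06 to 6.52 on the wild-type arrays. RTS, a gene of the tapetum that is needed for fertile pollen, had 4684, 1541 and 3822 on the dao arrays, against 1684, 1629 and 1676 on the wild-type arrays. Dao arrays 1 and 3 were far above wild type and dao array 2 was below it, and the difference did not pass (log2 0.86, SE 0.36, adjusted p = 0.172). INV4, the cell wall invertase of the anther, had a difference of the opposite sign, at 128.5, 104.3 and 98.53 on the dao arrays, against 213.0, 150.2 and 162.9 on the wild-type arrays. Its groups did not overlap (log2 -0.66, SE 0.17), and its adjusted p of 0.0512 was just over the limit. PSS1, a kinesin needed for male fertility, was at log2 -0.23 (adjusted p = 0.490).

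Among the dao arrays, array 2 was the lowest for C6, TDR and GAMYB, that is for 3 of the 5 genes, and for 39.4% of all probe sets tested. The summed signal of 4 green tissue markers (RBCS, CAB2R, RCA and GLK1), most of which came from RBCS and CAB2R, varied in the same order, at 4193, 1073 and 3128 on dao arrays 1, 2 and 3, against 2734, 1323 and 1798 on the wild-type arrays. None of the 4 markers was at 0 on any array, but neither were genes too dim to be tested, such as AMY1A. In the test of dao against wild type 0 of 4 passed, where 3.08% of all genes rose and 0.749% fell. That test does not bear on the variation within a group. In wild type the order of this sum (array 1 highest, array 2 lowest) was that of GAMYB and the reverse of that of C6 and TDR, while GLK1 alone was highest on array 2 and lowest on array 3. The part of green tissue in the differences of C6, TDR and GAMYB was not tested. MSP1 and MEL1 did not share the low value on dao array 2. The summed signal of 5 mature pollen markers varied little within each group but was lower on every dao array than on every wild-type array. It ran from 27130 to 28530 in dao and from 30830 to 32950 in wild type. The differences of all 5 markers were negative, from log2 -0.24 to -0.13, where 5868 of the 15612 genes tested were negative. Of the 5 markers 0 passed the test, where 3.08% of all genes rose and 0.749% fell. The part of pollen in the differences of the 5 early anther genes was not tested.

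**Figure D2:**
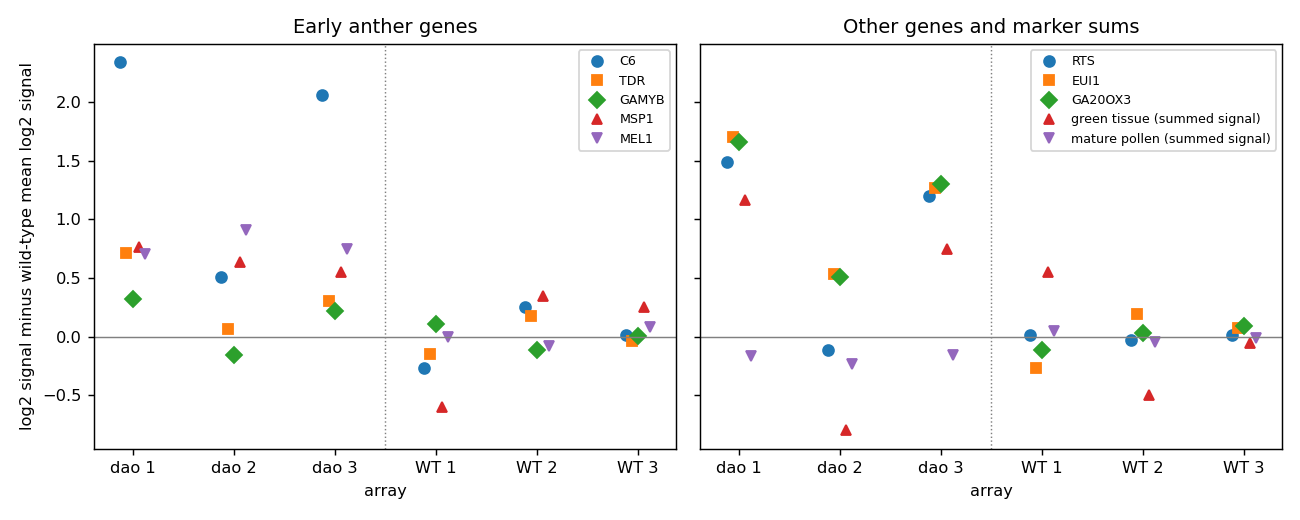
Signal on each array as log2 difference from the mean log2 signal of the wild-type (WT) arrays, for the 5 early anther genes (left) and for RTS, EUI1, GA20OX3 and the summed signal of the green tissue and mature pollen markers (right). C6 stands at 2.34, 0.51 and 2.06 on dao arrays 1, 2 and 3 and RTS at 1.49, -0.11 and 1.20, while MEL1 stands at 0.70, 0.91 and 0.75.

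MEL1, the argonaute that rice germ cells need to progress through meiosis, had a signal of 87.11, 100.7 and 90.06 on the dao arrays, against 53.33, 50.69 and 56.78 on the wild-type arrays. The groups were well apart, and the arrays within each group differed little. The mean was 92.6 ± 7.16 in dao and 53.6 ± 3.06 in wild type (SD, n = 3 each). The log2 difference was 0.79 (SE 0.13, adjusted p = 0.0125), with a 95% interval of 0.49 to 1.09, or 1.40-fold to 2.13-fold. It passed the adjusted p in 15 of 18 settings, this one included (0.0111 to 0.362 over the 18), and the 2-fold limit in 0. The adjusted p was lost without dao array 3 (0.0785), without wild-type array 3 (0.0694) and without both (0.362), while the log2 difference stayed at 0.81, 0.83 and 0.85. By p-value MEL1 stood at place 866 among the 34355 probe sets.

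**Figure D3:**
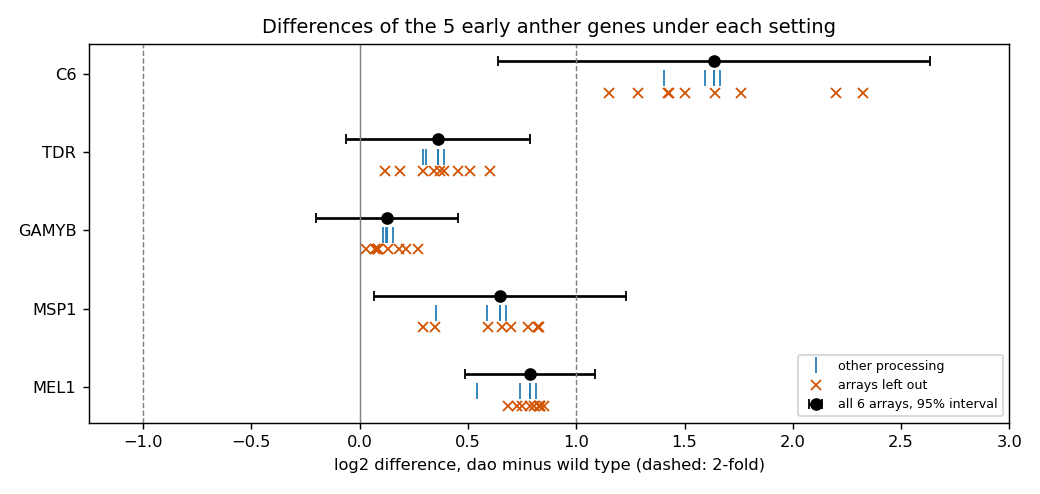
Log2 difference between dao and wild type for the 5 early anther genes. Black points and bars give the estimate from all 6 arrays with its 95% interval, blue ticks the other processing settings, and orange crosses the fits with arrays left out. The estimate of C6 runs from 1.15 to 2.33 with arrays left out and that of MEL1 from 0.69 to 0.85.

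MEL1 belongs to the argonautes, which bind small RNAs, and several relatives were also higher in dao. Of 17 argonautes and other small RNA factors, MEL1 included, 0 rose, 0 fell and 17 did not pass both limits. Over all genes tested, 3.08% rose and 0.749% fell. On the adjusted p alone 5 of the 17 were higher and 1 lower, where 10.4% of all genes were higher and 2.68% lower. The list had a median of log2 0.40, against 0.11 over all genes tested. AGO1D had a signal of 224.6, 190.5 and 200.1 on the dao arrays, against 98.84, 120.0 and 107.3 on the wild-type arrays, a log2 difference of 0.92 (SE 0.13, adjusted p = 0.00805). Like MEL1 and MADS3, it kept an adjusted p of at most 0.05 in 15 of 18 settings and lost it where an array numbered 3 was left out. AGO1C was at log2 0.84 (adjusted p = 0.0218, at most 0.05 in 12 of 17 settings) and PNH1, an argonaute of meristems and leaves, at 0.71 (adjusted p = 0.0359, at most 0.05 in 12 of 18). Both were dim. AGO1C had signals of 17.61 to 25.0 in dao and 10.86 to 12.38 in wild type. PNH1 had 19.34 to 26.53 in dao and 13.16 to 15.28 in wild type. Their lowest log2 differences over the settings were 0.28 and 0.26. AGO1A was the one that was lower, at 716.3, 874.4 and 702.0 on the dao arrays, against 1065, 1178 and 1067 on the wild-type arrays (log2 -0.54, SE 0.11, adjusted p = 0.0259, at most 0.05 in 12 of 18 settings). The AGO1 genes resemble each other in sequence, and how far their probes cross-hybridise was not tested. Genes of this list with another tested probe set are given here for that reason. AGO1B was at log2 0.18 by its brightest probe set and 0.90 by the other. AGO18 was likewise at 0.61 and -0.24, and DCL2A at -0.07 and -0.23. SHO1, the rice DCL4 that cuts small RNA precursors, likewise picked with its value known, was at log2 0.76 (adjusted p = 0.0436, at most 0.05 in 9 of 18 settings).

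Genes of meiosis, MEL1 included, gave no call. Of 14 measured genes of meiosis and the germ line 12 were tested, MEL1 included, with 4 positive and 8 negative differences. Among all genes tested 62.4% were positive. The list had a median of log2 -0.19, against 0.11 over all genes tested. None passed both limits, where 3.08% of all genes rose and 0.749% fell. On the adjusted p alone MEL1 was the only one of the 12 to pass, where 10.4% of all genes were higher and 2.68% lower. DMC1, the recombinase of meiosis, had 19.18, 12.71 and 13.77 on the dao arrays, against 43.26, 18.54 and 28.60 on the wild-type arrays. The groups overlapped, since dao array 1 lay above wild-type array 2 (log2 -0.92, SE 0.31, adjusted p = 0.103). MER3, a helicase of crossover formation, was at log2 -0.59 (adjusted p = 0.0997), with its other tested probe set at -0.39. RPA2C, a subunit of the single-strand DNA binding complex, was at 77.2 ± 11.2 in dao and 119 ± 23.3 in wild type (SD, n = 3 each), a log2 difference of -0.62 (adjusted p = 0.0734). SDS, a cyclin needed for meiotic breaks, was at log2 0.20 (adjusted p = 0.328).

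**Figure D4:**
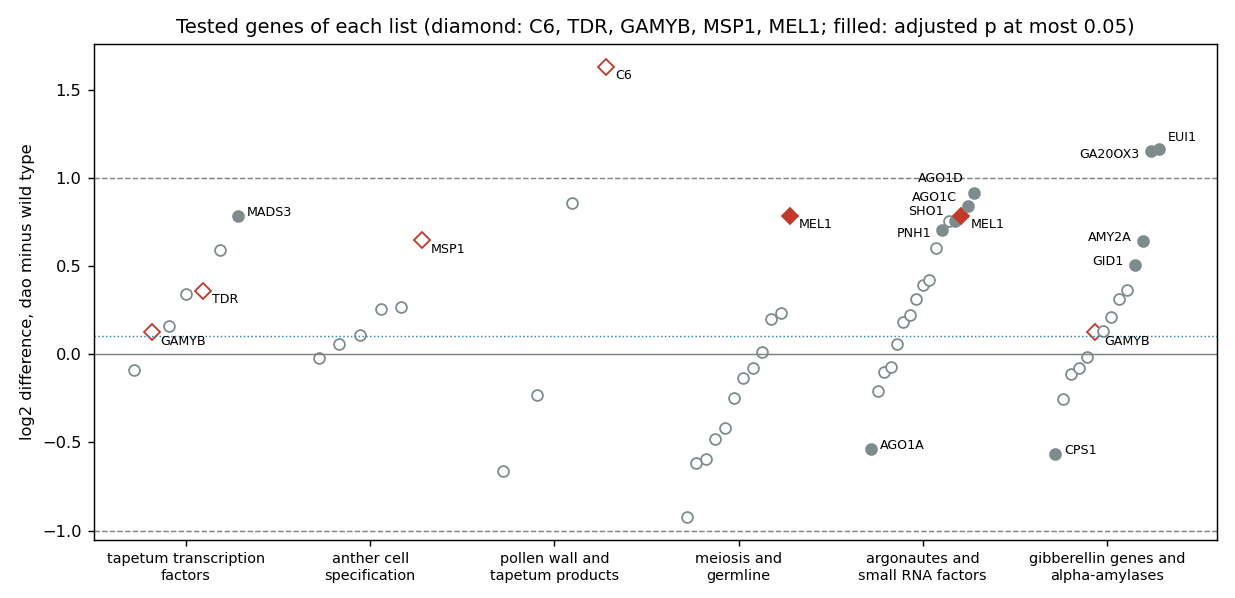
Log2 difference between dao and wild type for each tested gene of 6 lists, by its brightest probe set. Red diamonds are C6, TDR, GAMYB, MSP1 and MEL1, filled symbols have an adjusted p of at most 0.05, dashed lines mark a 2-fold difference and the dotted line the median of all genes tested (0.11). Only EUI1 and GA20OX3 lie above 1 with a filled symbol.

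How bright a probe set is bears on how far its value can be trusted, since detection calls were not used here. MSP1 was the dimmest of the 5 relative to its arrays, above 74.3% to 75.2% of the non-control probe sets on the dao arrays and above 64.5% to 73.1% on the wild-type arrays. MEL1 was above 79.9% to 82.4% on the dao arrays and 75.0% to 76.6% on the wild-type arrays. C6 was above 86.3% to 95.3% on the dao arrays and 80.3% to 84.9% on the wild-type arrays. The ranges were 84.3% to 87.9% in dao and 82.1% to 85.4% in wild type for TDR, and 94.8% to 96.1% in dao and 95.1% to 95.5% in wild type for GAMYB. These are places in the brightness of probes and do not compare transcript amounts between genes.

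For each of the 5 genes, the named genes with the most similar signal over the 6 arrays were sought among 2160 by Pearson's r, which with 6 arrays from 2 groups is a description only. For C6 they were EXP7 (r = 0.997) and PPE (r = 0.993), and EXP7 had 273.8, 115.1 and 236.9 on the dao arrays, against 76.17, 110.8 and 90.26 on the wild-type arrays. For TDR they were SPL9 (r = 0.996) and GLU14 (r = 0.992). For GAMYB they were OsrcaA1, the Rubisco activase gene counted above as RCA (r = 0.998), and GOS5 (r = 0.994). OsrcaA1 had 585.3, 201.4 and 492.4 on the dao arrays, against 372.4, 238.3 and 295.3 on the wild-type arrays, so that arrays 1 were the highest and arrays 2 the lowest in both groups, as in GAMYB. For MSP1 they were JAZ5 (r = 0.993) and EXP6 (r = 0.987), both lowest on wild-type array 1. For MEL1 they were DOF2 (r = 0.994, log2 0.86) and the protein kinase gene CIPK17 (r = 0.992, log2 1.35), and CIPK17 rose (adjusted p = 0.00358, called in 17 of 18 settings).

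The 5 genes lie on 4 chromosomes. GAMYB and MSP1 are on chromosome 1, TDR on chromosome 2, MEL1 on chromosome 3 and C6 on chromosome 11.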

How the data were processed

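The authors deposited linear intensity values, 1 per probe set and array, whose medians ran from 8.82 to 9.33 on the 6 arrays. MAS5 is named by the submitters' processing notes, with no version, and the background correction is not stated there. The values were log2-transformed with no further scaling. Of 57381 probe sets, 123 controls were left out, as were probe sets below the 40th percentile of mean log2 signal (a signal of 6.33), which kept all 5 genes. The other 34355 entered limma 3.58.1 in R 4.3.3 (2-sided, trend on mean signal, no covariate), adjusted by Benjamini-Hochberg. The fit was also run on simulated data. The outcome is not given here, so no conclusion about the p-values or the independence of the arrays is drawn from it. The limits follow the design text of the series, whose q-value is replaced by the adjusted p. Probe sets were named by Entrez ID through assembly ASM3414082v1 (22436 with 1 gene, 95 with several, 34850 controls and unnamed ones), and all 17905 genes were matched. A gene of a list was represented by its brightest probe set.

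The genes, lists and tests were chosen with earlier results of these data known. All probe sets of the 7 genes are named, with up to 4 other genes per list by smallest adjusted p (exceptions are marked where they stand) and the 2 most similar named genes each. Genes that share only a name with a list entry (such as aquaporins called TIP2) were removed before fold changes were computed for the lists. The number of arrays limits the precision, and 17 alternatives were run.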

Additional observations from a re-analysis of the deposited data

How the results depend on the processing

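All 5 genes kept a positive difference in all 18 settings. The log2 difference of C6 was called with the filter at the 60th percentile and with 1 probe set per gene (1.63 in both), and among fits with arrays left out it ran from 1.15 to 2.33, called without dao replicate 2 (2.20) and without both replicates 2, and at 1.28 without dao replicate 1. TDR ran from 0.11 to 0.60, GAMYB from 0.03 to 0.27, MSP1 from 0.29 to 0.83 and MEL1 from 0.69 to 0.85 with arrays left out, with no call. The number of the 5 genes past both limits was thus 1 in place of 0 under those 2 processing settings and 0 to 1 with arrays left out. The number past the adjusted p alone was 2 in place of 1 under the same 2 settings and 0 to 2 with arrays left out. Over all probe sets, 1157 passed, against 405 with log2(signal + 32), 616 with 1 probe set per gene, where fewer were tested, and 0 to 2222 with arrays left out (638 without dao replicate 1, 1684 without dao replicate 2, 298 without dao replicate 3 and 278 without wild-type replicate 3, 2222 without both replicates 2). Quantile normalization, median scaling, a constant prior and no filter changed no call on the 5 genes. The replicate block changed no call on the 5 genes either (1136 probe sets past), but the call on EUI1 was lost with it (adjusted p = 0.0629), and AMY2A no longer passed the adjusted p (0.0587). Same-numbered arrays had deviations that correlated at 0.25, 0.18 and 0.09. Arrays of unlike number were not compared, so these values cannot decide whether the numbers pair the arrays. The labels state no pairing, and the main fit used none. Without detection calls, differences of dim probe sets, MSP1 among the 5, are the least certain.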

Other observations

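Pistil and carpel markers, which could come from other floral organs in the sample, were measured beside the anther genes. Of 4 measured genes 3 were tested, and 1 rose, where 3.08% of all genes rose and 0.749% fell. MADS13, an ovule identity gene, had 29.38, 20.42 and 26.08 on the dao arrays, against 5.49, 6.58 and 6.47 on the wild-type arrays (log2 2.02, SE 0.17, adjusted p = 0.00212), a call kept in 15 of 17 settings and lost with log2(signal + 32), at 0.58, and without both arrays numbered 3. DL, the carpel identity gene, was dim, at 12.85, 15.36 and 13.49 on the dao arrays, against 16.71, 11.74 and 16.54 on the wild-type arrays, and the groups overlapped (log2 -0.09, adjusted p = 0.785). MADS58, a factor of stamens and carpels, was at log2 0.26 (adjusted p = 0.325). The summed signal of the 4 genes was 786.8, 783.0 and 760.5 on the dao arrays, against 515.0, 765.7 and 656.5 on the wild-type arrays. Most of this sum is MADS58, at 738.8, 743.1 and 717.1 on the dao arrays, against 489.5, 744.1 and 630.5 on the wild-type arrays. MSP1, which is also expressed in the ovule, was lowest on wild-type array 1 of the wild-type arrays, as were MADS58 and MADS13. DL and MADS21 were highest there. MADS21, at 3.30, 3.27 and 3.02 on the wild-type arrays, was too dim to be tested. The wild-type signals of MADS13 also lay near the filter limit of 6.33, so that their order is uncertain. The part of pistil tissue in the difference of MSP1 was not tested.

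The hybridization controls, transcripts added to each sample, were lower on every dao array than on every wild-type array in 18 of 18 probe sets (median log2 -0.38). Several of these probe sets read the same added transcript, so they are not separate observations.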
